A study of Mus musculus with 9 samples.

Results

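The classical cadherins and the non-clustered protocadherins were examined across the layers of the mouse piriform cortex, the olfactory cortex. A gene was taken as a member if its symbol was Cdh or Pcdh followed by digits (Pcdh11x included, Cdh5 and the clustered Pcdha, Pcdhb and Pcdhg genes not), or Celsr1 to Celsr3, Fat1 to Fat4 or Dchs1 and Dchs2. Of 33964 gene symbols in the count files, 42 were members, and Dchs2 was not analysed here. Each member was represented by the one of its transcripts with the highest mean count over all 9 samples. The samples were 3 replicates each of piriform layers A, B and C, cut by laser-capture micro-dissection from fresh-frozen brain sections of wild type C57BL/6 mice aged 8 weeks, a genotype that all layers share, and the labels name no treatment. The age is that of the labels, and the study's methods give the mice of these sections a different one. The letters are those of the labels, which give no key to layers I, II and III, and do not say whether replicates came from separate mice. P-values therefore measure the spread between these samples, which may share animals. They are too small if replicates of a layer share a mouse. Samples of different layers may also share a mouse, which the main test does not take into account.

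Cadherins are calcium-dependent adhesion proteins that join neighbouring cells through repeated extracellular domains. The classical cadherins of types I and II hold their partners mostly by like-to-like binding and are tied to the actin cytoskeleton by catenins, and in the brain they are known for cell sorting and for the matching of synaptic partners. Non-clustered (delta) protocadherins bind more weakly and signal through other cytoplasmic partners, such as the WAVE complex that regulates actin, and the large cadherins of the Celsr, Fat and Dachsous families set planar cell polarity, guide axons and control tissue growth.

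Total counts ranged from 23104306 to 76471683 per sample, and reads from the mitochondrial genome took 56.4% to 72.6% of them in layer A against 13.1% to 30.1% in B and 21.2% to 59.0% in C. Levels are given as normalized CPM, the count scaled to a library of fixed size after correction of the library totals by the trimmed mean of M values (TMM). A floor of 3 counts in a library was 0.0256 to 0.254 CPM on that scale and was highest in layer A. Layer B replicate 3 stood apart: its correlation with the other layer B samples over transcripts was 0.904 and 0.913, while these correlated at 0.987 with each other. Layer C replicate 2 differed from its layer in mitochondrial reads, at 59.0% against 30.7% and 21.2% in replicates 1 and 3. It correlated with them at 0.958 and 0.933, while these correlated at 0.972 with each other. The neuronal markers Slc17a7 and Tbr1 were found in all 9 samples, as the tissue label implies. No pair of samples of a layer agreed within sampling noise, so all 9 were counted.

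Of the 42 members, 36 reached 10 counts in 3 or more samples and were tested, and 29 reached 10 counts in all 9. Layer A differed from layer B in both directions among the classical cadherins, the delta-2 protocadherins and the large cadherins. It differed from layer C in both directions among the classical and the large cadherins. No delta protocadherin was higher in layer A than C. Cdh1, Cdh19, Celsr1 and Fat1 were higher in layer A than B and C, and Pcdh18 and Cdh20 were higher than B. Lower in layer A than in both other layers were Cdh7, Cdh8, Cdh12, Cdh13, Cdh18, Pcdh1, Pcdh8, Pcdh19 and Celsr2, and Cdh4 was lower than B. The N-cadherin gene Cdh2 and most of the delta protocadherins with the highest levels did not pass the test in any pair of layers.

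Between layers A and B, 16 of 36 tested members (44.4%) passed an adjusted p under 0.05 in edgeR's quasi-likelihood test, where 16.5% of all 56416 tested transcripts did. Of these, 6 were higher in layer A (16.7% of the members, 10.7% of all transcripts) and 10 were lower (27.8% of the members, 5.83% of all transcripts). Between layers A and C, 13 members (36.1%) passed, against 11.3% of all transcripts, with 4 higher in layer A (11.1% against 6.98%) and 9 lower (25.0% against 4.35%). Higher than in both other layers were 4 members (6.42% of all transcripts) and lower than in both 9 (3.42% of all transcripts). The 2 comparisons share the layer A samples, so the second is not independent of the first. All transcripts together include several of one gene and many of lower counts than the members. The median log2 fold change of the tested members was -0.36 between layers A and B and -0.34 between layers A and C, where that of all tested transcripts was -0.12 and -0.01. Samples of layers A and B did not overlap in 22 of the tested members (9 higher and 13 lower in layer A), where 32.3% of all transcripts did not overlap (17.2% higher and 15.1% lower). Those of layers A and C did not overlap in 18 (6 higher, 12 lower), where 31.4% did not (17% higher and 14.5% lower). The 6 members higher in layer A than C were near the share of all transcripts. In the test over all 3 layers together, 17 members passed, against 14.3% of all transcripts. They were those named above other than Cdh4, with Pcdh20 and Cdh6 added. Without layer B replicate 3, 16 members passed between layers A and B and 15 between layers A and C.

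**Figure D1:**
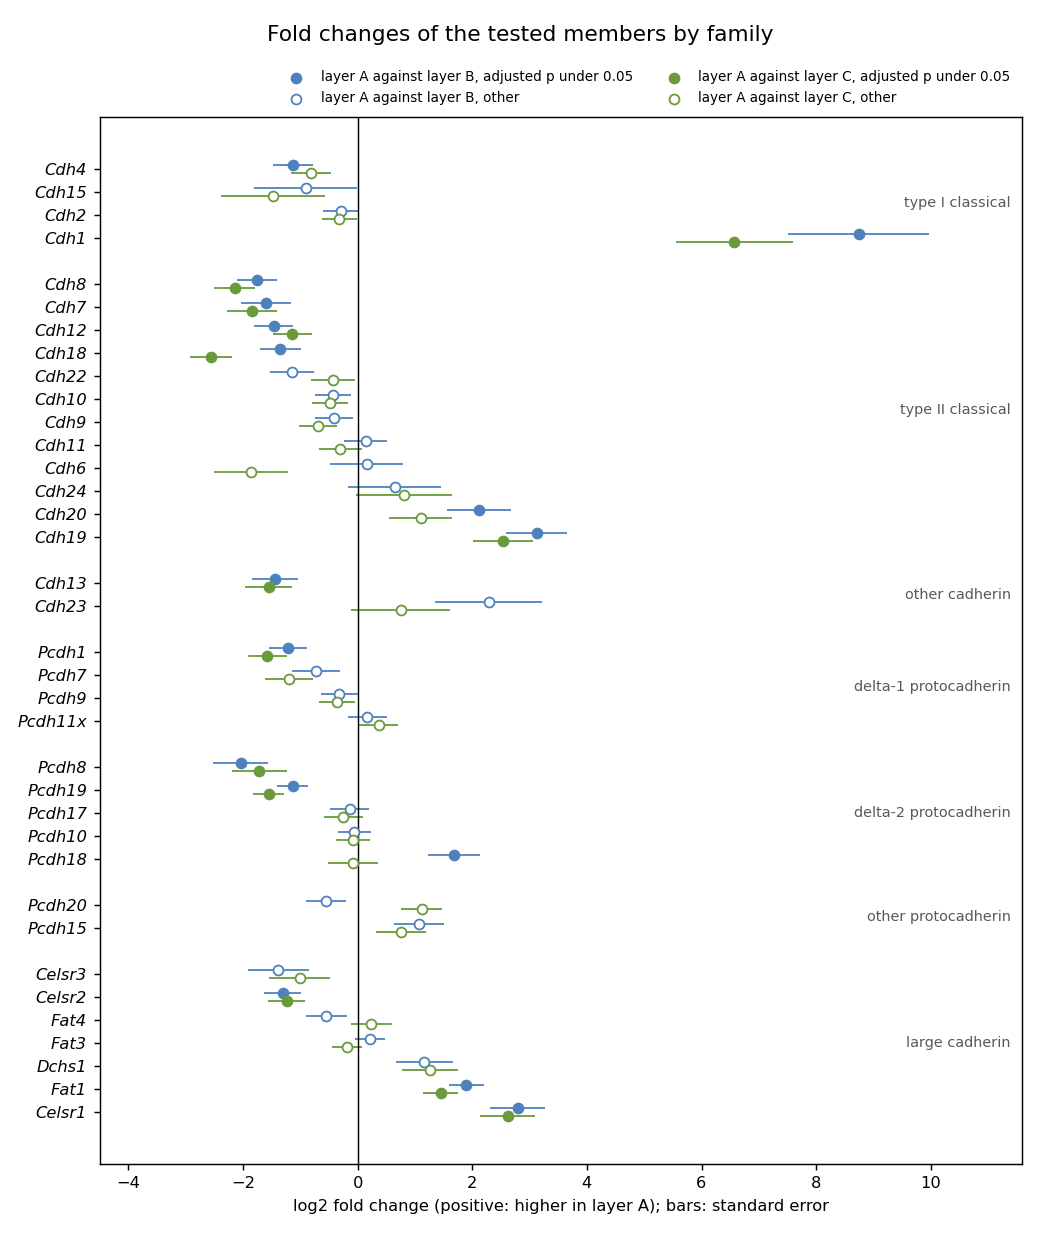
The log2 fold change of each of the 36 tested members is plotted on the horizontal axis, with its standard error as a bar, for layer A against layer B (blue) and against layer C (green), and filled points passed an adjusted p under 0.05. Blue filled points lie on both sides of 0 among the type I and type II cadherins, the delta-2 protocadherins and the large cadherins, and the point of Cdh1 far to the right depends on the prior count of the fit, since Cdh1 had no count in layer B.

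Markers of other cell types moved with layer A. All 12 astrocyte markers exceeded both other layers there, with a summed level of 4991 to 10509 CPM against 689 to 1169 in layer B and 1233 to 1697 in layer C. All 10 meningeal and fibroblast markers were also higher, at 73.8 to 180 CPM against 1.57 to 8.91 in layer B and 4.91 to 7.03 in layer C, and Col3a1 was at 0 in a layer B library and Aldh1a2 and Slc6a13 in a layer C library. Higher than B were 8 of 9 endothelial markers (118 to 143 CPM in layer A, 8.54 to 22.3 in B and 16.8 to 27.7 in C), all 6 pericyte and smooth muscle markers (199 to 346, 16.1 to 55.9 and 44.4 to 65.2) and all 6 oligodendrocyte precursor markers (95.6 to 138, 18.8 to 34.1 and 43.2 to 60.6). Of the 7 microglial markers, 5 were higher in layer A than B (103 to 127, 15.9 to 35.4 and 35.1 to 51.6 CPM). Against layer C, 7 endothelial, 6 pericyte and smooth muscle and 5 microglial markers were higher in layer A. Only 2 of the 6 oligodendrocyte precursor markers were higher in layer A than C. Of 8 oligodendrocyte markers, only Cnp was higher in layer A than B, and none differed from layer C (168 to 272, 44.3 to 221 and 135 to 492 CPM). Of 7 glutamatergic neuron markers, Camk2a was higher and 3 were lower in layer A than B, and of 8 GABAergic neuron markers Gad2 was higher. The summed level of the glutamatergic list was 2332 to 4230 CPM in layer A against 1158 to 1254 in B and 1140 to 1675 in C, most of it Camk2a. The GABAergic sum was 195 to 350 CPM in layer A and 182 to 310 in layer C, and in layer B it was 300.1 in replicate 3 against 60.8 and 56.1 in the others. The choroid plexus and ependyma list stayed between 0.510 and 1.77 CPM in every sample, with Ttr, Folr1 and Clic6 at 0 in at least 1 library of each layer. The part of these cell types in the results on cadherins was not tested, and in such tissue fewer cells of a type and less RNA per cell cannot be told apart.

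**Figure D2:**
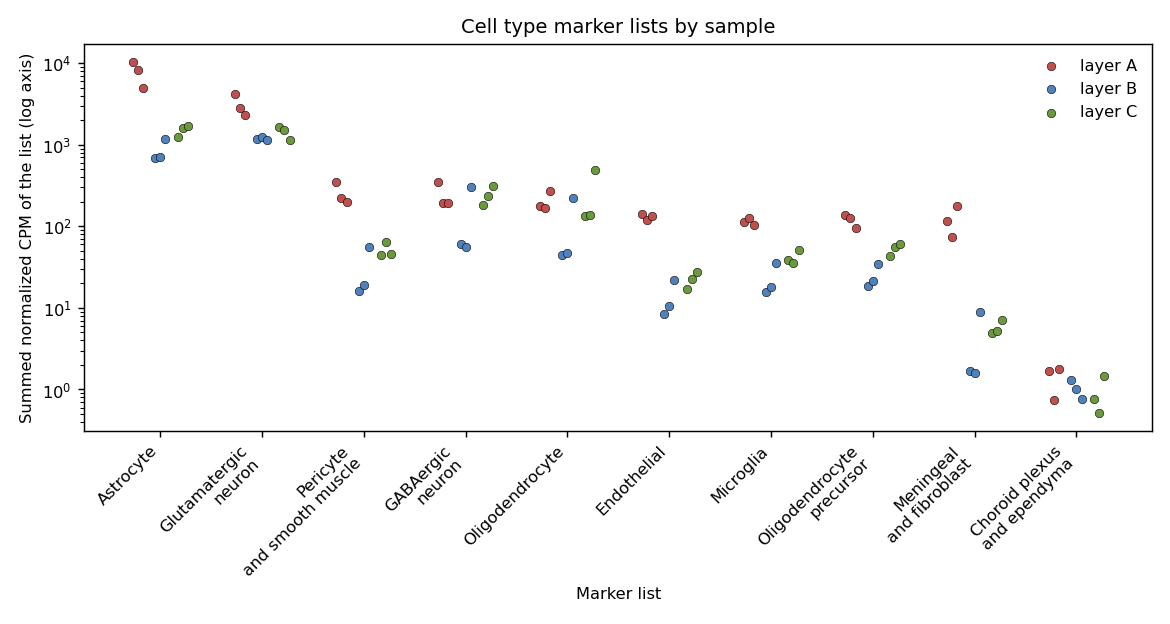
The summed normalized CPM of each cell type marker list is plotted for each of the 9 samples on a log axis (red, layer A; blue, layer B; green, layer C). The layer A samples lie above all others for the astrocyte, meningeal, endothelial, pericyte, microglial and oligodendrocyte precursor lists. They also do for the glutamatergic list, most of which is Camk2a. Layer B replicate 3 lies above the other layer B samples in all lists but the glutamatergic and the choroid plexus and ependyma lists.

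Compared per transcript length, Pcdh1, Pcdh7, Pcdh9, Celsr2 and Cdh2 had the highest mean levels over the 9 samples. Together, Pcdh1, Pcdh7 and Pcdh9 made up 34.4% ± 3.87 (SD, n = 3) of the summed CPM per kb of all members in layer A against 41.4% ± 6.75 in B and 44.8% ± 8.57 in C. The order of levels differed between the layers. Pcdh9 ranked 1 in layer A and 3 in layers B and C, while Fat1 ranked 7, 25 and 20 in layers A, B and C, and Cdh20 ranked 11, 26 and 22. Cdh13 went the other way, at rank 13 in layer A and 5 in both layers B and C. Many neighbours in this order lay within each other's spread between replicates. Pcdh1, Pcdh7 and Pcdh9 had 9.98 ± 2.00, 8.69 ± 3.51 and 10.3 ± 2.17 CPM per kb in layer A (mean and SD, n = 3).

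**Figure D3:**
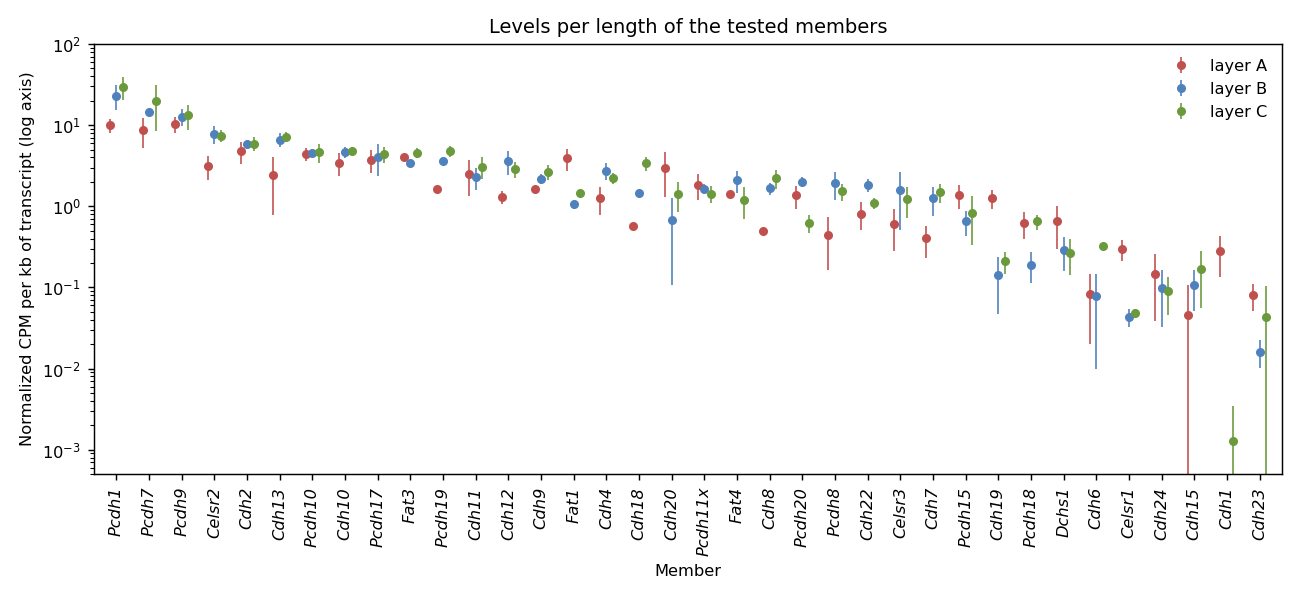
The mean level of each tested member per kb of its transcript is plotted on a log axis by layer (red, A; blue, B; green, C), with 1 SD of the 3 replicates as a bar that runs to the bottom of the plot where the SD reaches the mean. Members are ordered by their mean over the 9 samples, from Pcdh1 to Cdh23, and the mean of Cdh1 in layer B, which is 0, is not drawn.

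In 9 called members the RefSeq start site (GRCm38.p6) lies within 30 bases of the start of the counted transcript. The start regions of 4 of them are shown as examples of both directions of difference: Cdh20 and Pcdh18 higher, Cdh8 and Pcdh8 lower in layer A than B. Each is the 250 bases before the start site, 5′ to 3′ on the strand of the gene, with every CG dinucleotide in capitals. Cdh20 is at chr1:104768270-104768519 (plus strand), Pcdh18 at chr3:49757317-49757566, Cdh8 at chr8:99416472-99416721 and Pcdh8 at chr14:79771313-79771562 (the last 3 on the minus strand).
Cdh20: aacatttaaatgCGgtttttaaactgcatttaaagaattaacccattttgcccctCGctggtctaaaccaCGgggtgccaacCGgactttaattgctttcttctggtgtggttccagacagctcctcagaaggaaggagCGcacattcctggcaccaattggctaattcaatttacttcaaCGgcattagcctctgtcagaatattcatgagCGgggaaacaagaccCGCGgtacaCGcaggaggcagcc
Pcdh18: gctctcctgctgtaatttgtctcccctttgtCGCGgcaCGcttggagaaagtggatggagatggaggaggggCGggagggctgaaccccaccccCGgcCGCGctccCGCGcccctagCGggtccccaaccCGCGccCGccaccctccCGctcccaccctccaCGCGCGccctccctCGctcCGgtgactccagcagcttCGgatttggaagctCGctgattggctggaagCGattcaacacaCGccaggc
Cdh8: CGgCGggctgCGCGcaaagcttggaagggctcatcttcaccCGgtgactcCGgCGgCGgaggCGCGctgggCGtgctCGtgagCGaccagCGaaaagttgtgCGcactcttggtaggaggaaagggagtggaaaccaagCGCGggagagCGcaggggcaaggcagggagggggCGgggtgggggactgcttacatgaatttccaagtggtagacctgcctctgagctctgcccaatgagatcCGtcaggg
Pcdh8: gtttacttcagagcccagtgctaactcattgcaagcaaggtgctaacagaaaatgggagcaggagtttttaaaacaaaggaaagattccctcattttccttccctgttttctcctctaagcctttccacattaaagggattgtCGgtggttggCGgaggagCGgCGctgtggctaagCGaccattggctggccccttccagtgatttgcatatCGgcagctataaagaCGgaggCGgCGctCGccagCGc

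These windows hold 10 (Cdh20), 23 (Pcdh18), 20 (Cdh8) and 11 (Pcdh8) CG dinucleotides, where the median over all 32851 RefSeq windows of that length was 6. Of 28 members with a window, 16 matched the counted start, and 9 of those were called between layers A and B. The 3 higher in layer A had 2 (Fat1, whose window is not printed) to 23 CG dinucleotides and the 6 lower had 7 to 32, so the ranges overlapped. The letters CAGGTG, searched on both strands as the site form bound by repressors of Cdh1 such as Snail, were in 3 of the 16 windows (Celsr2, Fat1 and Pcdh15) and in 17.2% of all windows. Cdh1 itself was not among the 28 members with a window, so its start region was not searched. A match is a description of these letters and was not tested for any role.

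Among the type I cadherins, Cdh1 encodes E-cadherin, the adhesion protein of epithelia, and Cdh1 (ENSMUST00000000312, chr8:106603351-106670246, plus strand) had counts in each layer A sample and almost none elsewhere. It had 12, 11 and 80 counts in layer A, 0 in every layer B sample and 0, 0 and 2 in the layer C samples. Its level was 1.02, 0.735 and 1.99 CPM in layer A. Against the floor of 3 counts in each layer B library, it was at least 18.8-fold higher in layer A than B. The ratio of the pooled layers A and C was 134 (95% exact interval 36.1 to 1120, which covers counting error only). Both differences passed (adjusted p = 0.000586 and 0.00277, edgeR's quasi-likelihood test), and without any one layer A replicate Cdh1 fell below the filter and was not tested. Cdh3, the P-cadherin gene, lies 46.1 kb upstream of Cdh1 and had 4, 0 and 4 counts in layer A, none in layer B and 1 in layer C, too few to be tested.

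Cdh2 (ENSMUST00000025166) encodes N-cadherin, the main classical cadherin of neurons and of neural progenitors. It had 31.1, 19.6 and 18.5 CPM in the layer A samples, 30.6, 30.1 and 24.2 in those of layer B and 30.8, 33.0 and 22.3 in those of layer C. The layers overlapped throughout, and neither difference from layer A passed (log2 fold change -0.30 ± 0.30 against B, adjusted p = 0.568, and -0.32 ± 0.30 against C, adjusted p = 0.587). Cdh4 (ENSMUST00000000314, chr2:179442431-179899373, plus strand), the R-cadherin gene, was lower in layer A than B, at 4.74, 8.75 and 10.5 CPM in the layer A samples, 19.3, 20.6 and 12.9 in those of layer B and 15.1, 11.5 and 15.9 in those of layer C. Every layer A sample lay below every sample of the other layers, and the log2 fold change was -1.13 ± 0.35 against layer B (adjusted p = 0.0392) and -0.81 ± 0.35 against layer C (adjusted p = 0.162). The Cdh4 call against layer B was lost without layer A replicate 1 or 2, layer B replicate 1 or 2 or layer C replicate 1 or 3 (adjusted p 0.0597 to 0.150). It was also lost with 10 counts asked of all 9 samples (adjusted p = 0.0546), with only the 6 samples compared (0.0863), and when mitochondrial transcripts were left out (0.050005, and 0.102 with scaling by total counts). Cdh15, the M-cadherin gene known from muscle, did not exceed 0.957 CPM in any sample and did not pass.

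The type II cadherins held members on both sides. Of the 12, all tested, Cdh19 and Cdh20 were higher and Cdh7, Cdh8, Cdh12 and Cdh18 were lower in layer A than B. Cdh19 (ENSMUST00000094626, chr1:110888326-110977363, minus strand), known from Schwann cells and other glial lineages, had 5.67, 5.74 and 3.44 CPM in the layer A samples, 0.449, 0.254 and 0.978 in those of layer B and 0.736, 0.638 and 1.11 in those of layer C. All layer A samples were above all others, by 3.12 ± 0.53 in log2 against layer B (adjusted p = 0.00130) and 2.53 ± 0.52 against layer C (adjusted p = 0.00784, 0.0583 without layer C replicate 1). Cdh20 (ENSMUST00000062528, chr1:104768529-104995481, plus strand), whose start region is printed above, had 19.9, 8.62 and 7.56 CPM in the layer A samples, 1.19, 1.64 and 5.41 in those of layer B and 4.56, 8.23 and 4.11 in those of layer C. Layer A replicate 1 was far above the other samples of its layer, and layer B replicate 3 above the other layer B samples. The difference from layer B passed (log2 fold change 2.12 ± 0.56, adjusted p = 0.0171) and that from layer C, where samples overlapped, did not (1.10 ± 0.55, adjusted p = 0.235). Without layer A replicate 1 or layer B replicate 1 or 2, the Cdh20 call was lost (adjusted p 0.0578 to 0.111), and with layer B replicate 3 and layer C replicate 2 both left out the log2 fold changes were 3.08 against layer B (adjusted p = 0.000293) and 1.46 against layer C (adjusted p = 0.026).

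Of the type II cadherins lower in layer A, Cdh8 (ENSMUST00000128860, chr8:99028961-99416471, minus strand), which is expressed in restricted sets of cortical and subcortical neurons, had 2.20, 2.20 and 2.39 CPM in the layer A samples, 8.29, 8.59 and 6.16 in those of layer B and 10.3, 12.8 and 7.34 in those of layer C. The layer A replicates lay close together and below all others. The log2 fold change was -1.76 ± 0.35 against layer B (adjusted p = 0.00352) and -2.15 ± 0.36 against layer C (adjusted p = 0.00289), and both calls held when any one sample was left out. Cdh18 (ENSMUST00000164787, chr15:23036463-23474418, plus strand) had 1.52, 1.67 and 1.5 CPM in the layer A samples, 4.16, 3.39 and 4.37 in those of layer B and 9.23, 11 and 7.46 in those of layer C. The samples of the 3 layers formed separate ranges, with layer A lowest and layer C highest. Against layer C the log2 fold change was -2.56 ± 0.36 (adjusted p = 0.00177), called whichever sample was left out. Against layer B it was -1.35 ± 0.35 (adjusted p = 0.0162), and this call was lost without layer A replicate 1 or 3 or layer B replicate 1 (adjusted p 0.0510 to 0.0681) and with only the 6 samples compared (0.0553).

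Cdh12 (ENSMUST00000075132, chr15:21111452-21589530, plus strand), the neighbour of Cdh18 on chromosome 15, had 6.77, 6.35 and 8.88 CPM in the layer A samples, 17.7, 15.4 and 28.0 in those of layer B and 18.0, 18.6 and 12.1 in those of layer C. Layer A was below all other samples, by -1.47 ± 0.34 in log2 against layer B (adjusted p = 0.00783) and -1.14 ± 0.34 against layer C (adjusted p = 0.0395). The Cdh12 call against layer C was lost without any one layer A replicate, layer B replicate 1 or layer C replicate 1 or 2 (adjusted p 0.0534 to 0.163), and with scaling by total counts without mitochondrial transcripts (0.0514). Cdh7 (ENSMUST00000131464, chr1:109983229-110139195, plus strand) had 0.931, 1.8 and 2.34 CPM in the layer A samples, 3.68, 4.46 and 7.62 in those of layer B and 5.86, 8.04 and 4.86 in those of layer C. Its layer A samples were again the lowest, with log2 fold changes of -1.60 ± 0.44 against layer B (adjusted p = 0.0204) and -1.84 ± 0.44 against layer C (adjusted p = 0.0154). The call was lost against layer B without layer A replicate 1 or 2 or layer B replicate 3 (adjusted p 0.0536 to 0.0896) or with only the 6 samples compared (0.0508), and against layer C without layer A replicate 1 or 2 or layer C replicate 1 or 2 (adjusted p 0.0550 to 0.0679). The counted Cdh7 transcript is annotated as a target of nonsense-mediated decay, and a second transcript had 94.1% of its mean count, so the isoform behind these reads is not settled. The remaining type II members, Cdh6, Cdh9, Cdh10, Cdh11, Cdh22 and Cdh24, passed against neither layer B nor layer C in edgeR's test of all transcripts. Among them Cdh22 came nearest to the threshold against layer B, at -1.15 ± 0.38 (adjusted p = 0.0532), with no overlap between the layers. Cdh22 passed in DESeq2 (adjusted p = 0.0199) and with 1 transcript a gene tested (0.0379). Cdh6 was near the threshold against layer C (-1.86 ± 0.64, adjusted p = 0.0772). Cdh6 passed in DESeq2 (adjusted p = 0.0322), without a filter (0.0463), with 1 transcript a gene (0.0411) and with only the 6 samples compared (0.0289). It also passed with the replicate number as a block (adjusted p = 0.0223) and without layer A replicate 3 or layer B replicate 3 (0.0437 and 0.0173).

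Beyond the classical types, Cdh13 (ENSMUST00000117160, chr8:118283733-119324921, plus strand) encodes T-cadherin, which is held in the membrane by a lipid anchor and has no cytoplasmic part to bind catenins. It had 4.40, 6.88 and 16.1 CPM in the layer A samples, 19.7, 27.1 and 28.6 in those of layer B and 25.5, 24.7 and 31.3 in those of layer C. All layer A samples were below all others, though layer A replicate 3 came close to the lowest of layer B. The log2 fold change was -1.44 ± 0.40 against layer B (adjusted p = 0.0228) and -1.56 ± 0.41 against layer C (adjusted p = 0.0226). These calls were lost without layer A replicate 1 or 2 or layer B replicate 2 (against layer B, adjusted p 0.0551 to 0.103) and without layer A replicate 1 or 2 or layer C replicate 1 or 3 (against layer C, 0.0631 to 0.102). They were also lost with scaling by total counts without mitochondrial transcripts (0.0615 against layer B and 0.0525 against layer C), and that against layer B with only the 6 samples compared (0.0581). Cdh23 and Pcdh15 form the tip links of inner ear hair cells. Cdh23 did not exceed 1.22 CPM in any sample, and neither it nor Pcdh15 passed (log2 fold changes of 2.29 ± 0.93 and 1.07 ± 0.44 against layer B, adjusted p = 0.113 and 0.116). Without layer C replicate 3, Cdh23 passed against layers B and C (adjusted p = 0.0326 and 0.0308). It also passed against layer B with only the 6 samples compared (0.0340). Pcdh15 passed against layer C with layer B replicate 3 and layer C replicate 2 both left out (1.35, edgeR adjusted p = 0.0211). Of the 26 tested Pcdh15 transcripts, 1 was called higher in layer A than C and 0 were called against layer B. Cdh16, Cdh17 and Cdh26, which are best known from epithelia outside the brain, were not tested, and none of them had more than 10 counts in any sample.

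The delta-1 protocadherins included the members with the highest levels per length. Pcdh1 (ENSMUST00000161701) had 47.2, 31.8 and 37.5 CPM in the layer A samples, 96.8, 116 and 57.7 in those of layer B and 144, 129 and 74.5 in those of layer C. It was lower in every layer A sample than in any other, by -1.22 ± 0.34 in log2 against layer B (adjusted p = 0.0223) and -1.58 ± 0.34 against layer C (adjusted p = 0.00979). The call was lost against layer B without layer A replicate 2 or 3 or layer B replicate 1 or 2 (adjusted p 0.0645 to 0.101) and against layer C without layer A replicate 2 or layer C replicate 1 (0.0519 to 0.0657). Pcdh7 (ENSMUST00000094783, chr5:57719097-58129351, plus strand) had 47.8, 24.0 and 26.0 CPM in the layer A samples, 48.8, 62.0 and 50.9 in those of layer B and 78.8, 115 and 29.8 in those of layer C. Its spread in layer C was wide, and it did not pass against layer B (-0.73 ± 0.42, adjusted p = 0.270) or layer C (-1.20 ± 0.42, adjusted p = 0.0811). Against layer C it passed without a filter (adjusted p = 0.0315) or without layer C replicate 3 (0.0175). Of the counted Pcdh7 transcript, 29.5% overlaps 4932441J04Rik on the other strand, and since the libraries did not keep the strand, reads of the 2 genes cannot be told apart there. Pcdh9 (ENSMUST00000068992, chr14:93015512-93888732, minus strand) had 47.2, 31.7 and 35.4 CPM in the layer A samples, 48.8, 58.0 and 35.5 in those of layer B and 37.4, 68.1 and 41.2 in those of layer C. Its layers overlapped, with log2 fold changes of -0.32 ± 0.32 and -0.36 ± 0.32 (adjusted p = 0.562 and 0.553). Pcdh11x, between 9.41 and 20.6 CPM in all samples, did not pass either.

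Among the delta-2 protocadherins, several of which bind the WAVE complex, Pcdh19 (ENSMUST00000149154, chrX:133582860-133688987, minus strand) is the X-linked gene mutated in a form of epilepsy that affects mainly girls. Pcdh19 had 16.5, 16.6 and 17.5 CPM in the layer A samples, 36.5, 33.0 and 41.3 in those of layer B and 49.4, 57.6 and 41.9 in those of layer C. The layer A replicates were nearly equal, and the ranges of the 3 layers were separate, with layer C highest. The log2 fold change was -1.13 ± 0.27 against layer B (adjusted p = 0.00989) and -1.56 ± 0.27 against layer C (adjusted p = 0.00368), and both calls held whichever sample was left out. Pcdh8 (ENSMUST00000039568, chr14:79766775-79771312, minus strand), also named arcadlin and known to be induced by neuronal activity, had 0.677, 1.74 and 2.97 CPM in the layer A samples, 6.49, 5.63 and 11 in those of layer B and 4.64, 7.53 and 6.26 in those of layer C. All layer A samples were below the rest, by -2.04 ± 0.48 in log2 against layer B (adjusted p = 0.00862, called whichever sample was left out) and -1.71 ± 0.48 against layer C (adjusted p = 0.0301). The Pcdh8 call against layer C was lost without layer A replicate 1 or 2 or any one layer C replicate (adjusted p 0.0678 to 0.103) and with scaling by total counts without mitochondrial transcripts (0.0548), and 10.9% of the transcript overlaps Gm9748 on the other strand.

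Pcdh18 (ENSMUST00000035931, chr3:49743296-49757316, minus strand), another delta-2 member, had 2.62, 4.54 and 2.42 CPM in the layer A samples, 0.651, 0.877 and 1.44 in those of layer B and 3.02, 2.87 and 4.18 in those of layer C. Layers A and C overlapped and both lay above layer B. The difference from layer B passed (1.68 ± 0.45, adjusted p = 0.0180), and was lost without layer A replicate 2 or layer B replicate 1 or 2 (adjusted p 0.0606 to 0.0910), whereas that from layer C was near 0 (-0.08 ± 0.43, adjusted p = 0.940). Pcdh10 and Pcdh17 had 28.5 to 49.5 and 32.7 to 69.4 CPM over the 9 samples and did not pass in any pair of layers. Pcdh12, known from endothelium, had at most 10 counts in a sample and was not tested.

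The large cadherins also moved in both directions. The Celsr genes are the mammalian relatives of fly flamingo, with roles in planar polarity and axon guidance. Celsr1 (ENSMUST00000016172, chr15:85898929-86033777, minus strand) had 2.20, 3.54 and 4.01 CPM in the layer A samples, 0.337, 0.554 and 0.520 in those of layer B and 0.589, 0.510 and 0.494 in those of layer C. All layer A samples were above all others, by 2.79 ± 0.47 in log2 against layer B (adjusted p = 0.00122) and 2.62 ± 0.47 against layer C (adjusted p = 0.00432), and both calls held whichever sample was left out. Its relative Celsr2 (ENSMUST00000090558, chr3:108390851-108415552, minus strand) had the opposite order, with 21.8, 44.1 and 33.6 CPM in the layer A samples, 96.1, 92.2 and 58.5 in those of layer B and 88.3, 63.1 and 82.8 in those of layer C. Here all layer A samples were below all others, by -1.31 ± 0.32 against layer B (adjusted p = 0.0118) and -1.23 ± 0.32 against layer C (adjusted p = 0.0233). The Celsr2 call was lost against layer B without layer A replicate 1 or layer B replicate 1 (adjusted p 0.0587 to 0.0653) and against layer C without layer A replicate 1 or 3 or layer C replicate 1 or 3 (0.0589 to 0.117) or with scaling by total counts without mitochondrial transcripts (0.0562). Celsr3 had overlapping samples and did not pass (-1.38 ± 0.53 against layer B, adjusted p = 0.0926). It was called lower against layer B without a filter (adjusted p = 0.0344) and without layer B replicate 3 (0.00854).

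Fat1 (ENSMUST00000098796, chr8:44950208-45052257, plus strand), a very large cadherin that organizes actin at cell contacts, had 74.6, 58.6 and 39.6 CPM in the layer A samples, 14.3, 17.6 and 14.5 in those of layer B and 18.5, 23.3 and 21.3 in those of layer C. Every layer A sample was above every other sample, by 1.90 ± 0.31 in log2 against layer B (adjusted p = 0.000910, called whichever sample was left out) and 1.45 ± 0.30 against layer C (adjusted p = 0.00809, 0.0658 without layer C replicate 1). Fat2, known from cerebellar granule cells and epithelia, was below the filter, with 1, 10 and 54 counts in layer A against 0, 1 and 0 in B and 0, 0 and 4 in C. The ratio of its pooled counts per scaled library was 132 between layers A and B (95% exact interval 22.9 to 5295) and 42.2 between layers A and C (15.7 to 160), which covers counting error only, and most of the layer A counts came from replicate 3. Dchs1 and Fat4 encode a ligand and receptor pair of the Hippo growth pathway. Dchs1 had 1.17 ± 0.49 against layer B (adjusted p = 0.124) with no overlap, Fat4 had -0.55 ± 0.35 (adjusted p = 0.337), and neither they nor Fat3, at 58.0 to 96.0 CPM in all samples, passed.

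**Figure D4:**
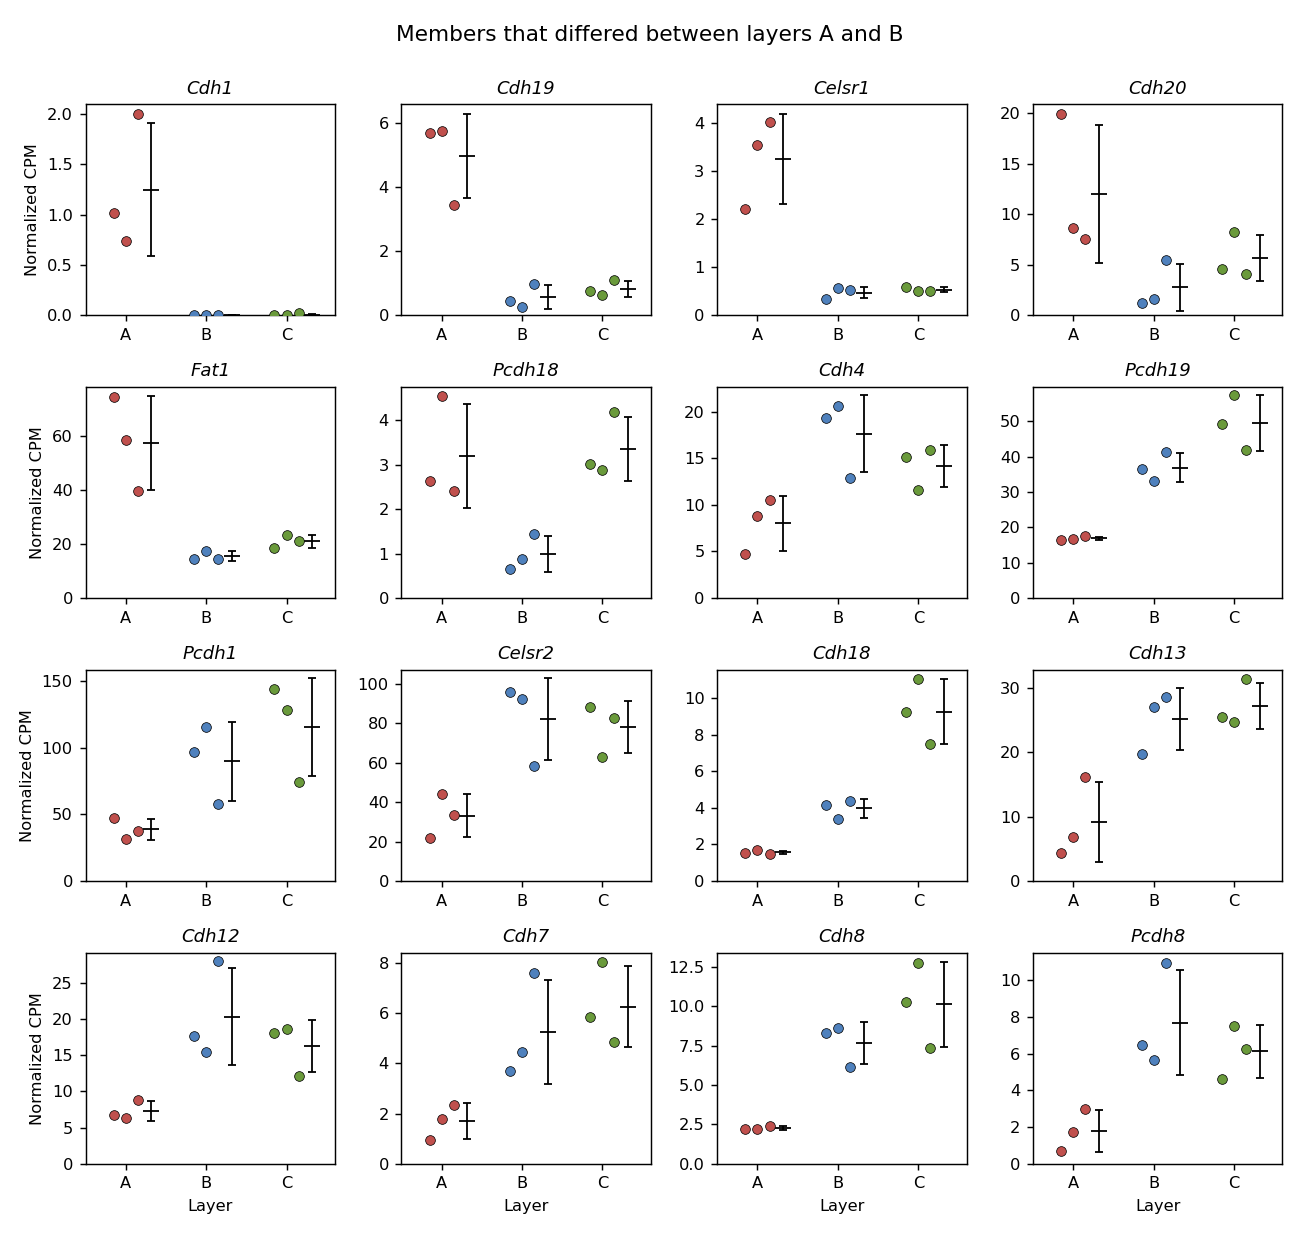
Each panel plots the normalized CPM of one of the 16 members that differed between layers A and B, with 1 point for each of the 3 replicates of layers A, B and C (replicates 1 to 3 from left to right) and the mean with 1 SD beside them. In every panel the layer A samples lie wholly above (6 panels, first) or wholly below (10 panels) those of layer B, and the layer C samples overlap those of layer A in the panels of Cdh20 and Pcdh18.

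Layers B and C were compared in the same fit, and 0 of the 36 members and 0% of all transcripts passed in edgeR's quasi-likelihood test (smallest adjusted p over all transcripts 0.0698). Samples did not overlap in 2 members higher in layer B (3.92% of all transcripts) and 6 lower (4.67%), 8 in all (8.59%). At an unadjusted p under 0.05 there were 5 members, against 4.11% of all transcripts. DESeq2 called 2, Pcdh20 and Pcdh18. The share of all transcripts that DESeq2 called between these layers was not computed, so these 2 cannot be set against it. Pcdh20 (ENSMUST00000061628, chr14:88464743-88471396, minus strand), a protocadherin outside the delta groups here, had 9.65, 5.41 and 6.33 CPM in the layer A samples, 12.2, 9.47 and 9.68 in those of layer B and 2.87, 2.68 and 4.17 in those of layer C. All layer B samples were above all layer C samples, with a log2 fold change of 1.68 ± 0.36 (edgeR adjusted p = 0.541, DESeq2 adjusted p = 0.0105). Between layers A and C, where Pcdh20 was not called (1.12 ± 0.36, edgeR adjusted p = 0.0554), it was called higher in layer A by DESeq2 (0.0187) and with 1 transcript a gene (0.0359). It was likewise called with 10 counts asked of all 9 samples (adjusted p = 0.0408), with scaling by total counts without mitochondrial transcripts (0.0495) and without layer B replicate 3 (0.0273). Pcdh18, with the values given above, had -1.77 ± 0.45 (edgeR adjusted p = 0.541, DESeq2 adjusted p = 0.0442), and its layer B samples were all below layer C. Cdh18 was lower in all layer B samples than in layer C (-1.21 ± 0.34, edgeR adjusted p = 0.685). Cdh6 (ENSMUST00000036439, chr15:13028701-13173675, minus strand) had 0.314, 0.323 and 1.29 CPM in layer B and 2.43, 2.55 and 2.87 in layer C, against 0.508, 0.267 and 1.25 in layer A. Its layer B replicate 3 was well above the other layer B samples and still below layer C (-2.02 ± 0.63, edgeR adjusted p = 0.763). Fat4 had 35.4, 42.4 and 22.6 CPM in layer B and 20.2, 27.6 and 10.8 in layer C, against 22.2, 23.6 and 22.9 in layer A. Its layer B and C samples overlapped (0.78 ± 0.35, edgeR adjusted p = 0.99989). Without layer B replicate 3 the adjusted p was 0.077 for Cdh6 (log2 fold change -3.08), 0.082 for Pcdh18 (-2.19), 0.0855 for Pcdh20 (1.67), 0.137 for Cdh18 (-1.33) and 0.327 for Fat4 (0.96), so none of them passed.

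The partner genes of cadherins were read in the same fit. Of 32 that were tested, 7 were higher in layer A than B (Ctnna1, Ctnnd1, Vcl, Tead1, Yap1, Fzd6 and Vangl1) and 2 were lower (Wasf1 and Cyfip2), and against layer C 4 were higher (Ctnna1, Vcl, Tead1 and Fzd6) and the same 2 lower. Of all transcripts, 10.7% were higher and 5.83% lower in layer A than B, and 6.98% and 4.35% than in C. The 2 lower partner genes were near the share of all transcripts. Beta-catenin (Ctnnb1), which binds the tail of classical cadherins, had a log2 fold change of 0.07 against layer B (adjusted p = 0.925). Alpha-E-catenin (Ctnna1), which links that complex to actin, had 44.8, 21.7 and 27.2 CPM in layer A, 3.64, 3.56 and 14.6 in B and 6.72, 9.89 and 7.76 in C (2.10 against layer B, adjusted p = 0.00962). Vinculin (Vcl), which reinforces the same link, had 22.9, 24.4 and 18.2 CPM in layer A and 4.40 to 6.76 in all other samples (1.90 against layer B, adjusted p = 0.00119). Layer A lay above the other layers for both genes. Fzd6, a planar polarity receptor, was higher in layer A by 3.48 in log2 than B (adjusted p = 0.000201), and Tead1, a transcription factor of the Hippo pathway, by 2.92 (adjusted p = 0.000239). Vangl1, a membrane protein of the polarity pathway, was higher by 2.59 (adjusted p = 0.00765). The WAVE complex subunit Wasf1 was lower in layer A, with log2 fold changes of -2.54 against layer B (adjusted p = 0.000586) and -1.98 against layer C (adjusted p = 0.00509). Of the clustered protocadherins, 37 of 38 were tested, and none was higher in layer A while 9 were lower than B and 8 than in layer C, and the difference from the non-clustered members was not tested. Clustered genes share exons, so their counts are not separate measurements.

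The other transcripts of the called members gave the same signs. The 16 members called between layers A and B had 55 tested transcripts, and all 55 had the sign of the counted one, which is no independent evidence because transcripts of a gene share reads. Among members that were not called, signs were mixed in Pcdh10 (2 of 3 tested transcripts with the sign of the counted one against layer B), Pcdh11x (3 of 4) and Pcdh15 (24 of 26). In Cdh8, 6 of 7 tested transcripts were lower in layer A than B and 6 of 7 than in layer C. In Celsr2, 1 of 7 was lower in each comparison, with log2 fold changes of -2.65 to -0.99 against layer B. Against layers B and C, 1 and 2 of 7 were lower in Cdh13, 3 and 5 of 9 in Cdh7, and 1 and 0 of 4 in Cdh4. The same counts were 4 and 6 of 6 in Cdh18, 4 and 4 of 4 in Pcdh1, and 3 and 3 of 3 in Pcdh19. Of 19 tested members with several transcripts, 7 had a second one within 10% of the mean count of the highest, so a change cannot be assigned to an isoform there.

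By position, the members lie on 14 chromosomes, and neighbours could share a direction or differ in it. On chromosome 1, Cdh7 was lower and Cdh19, 749.1 kb further on, was higher in layer A than in the other layers. Along chromosome 15, the type II genes Cdh6, Cdh9, Cdh10, Cdh12 and Cdh18 follow one another at gaps of 1446.9 to 3604.4 kb, of which the last pair was lower in layer A than in both other layers and the first 3 did not pass.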

How the data were processed

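RNA of piriform cortex was measured in 9 laser-captured samples, 3 each of the layers labelled A, B and C. Amplified RNA (Ovation kit) went into libraries that do not keep the strand. The authors deposited raw counts of reads per Ensembl transcript, with no normalization. The submitters' processing notes name bcl2fastq 1.8.4, Bowtie, HTSeq 0.5.3 and mm10, and how reads shared by transcripts were counted is not given in the sources used here. Without molecular identifiers, amplified reads are not independent molecules, and an interval or floor reflects the error of counting alone.

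Of 95533 identifiers, 82807 (86.7%) were found in the GENCODE vM21 annotation of GRCm38, the assembly of mm10. The 56416 transcripts that reached 10 counts in 3 or more samples entered a quasi-likelihood fit over the 9 samples (edgeR 4.0.16, R 4.3.3, TMM), and p-values were adjusted by Benjamini-Hochberg over all of them, with 0.05 as the threshold. Fold changes are log2 of layer A over the other layer, or layer B over layer C, with their standard errors. CPM per kb divides by transcript length. The fit was tested on simulated data. Members, partner genes and marker lists were chosen with earlier results of these data known. Values in every sample are given for each member called between a pair of layers, for the 5 of highest level per length, and for those below an unadjusted p of 0.05 between layers B and C, and of the partner genes for at most 6. Cdh3, Fat2, Dchs1, Ctnnb1 and others given with values outside this rule were named after their values were seen. The labels do not say whether equal replicate numbers mark the same mice, and the main fit did not pair them. Deviations of same-numbered samples from their layer means correlated between -0.22 and 0.27, with 5 of 9 pairs over 0.1. With 3 samples a layer, this cannot settle whether they were paired. Alternatives were DESeq2 1.42.0, another normalization, other filters, the replicate number as a block, counts summed by gene, 1 transcript a gene, only the 6 samples compared, no mitochondrial transcripts, and each sample left out. After the data were seen, layer B replicate 3 and layer C replicate 2 were also left out together.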

Additional observations from a re-analysis of the deposited data

How the results depend on the processing

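Between layers A and B, the 16 calls ranged from 9 to 16 with 1 sample omitted at a time (higher 4 to 7, lower 5 to 10), fewest without layer A replicate 1. Between layers A and C, the 13 calls ranged from 5 to 15 (higher 2 to 5, lower 3 to 10), fewest without layer C replicate 1. Over all 3 layers, the 17 ranged from 8 to 19. Between layers B and C, 0 remained in each omission. With only the 6 samples compared, 6 members in place of 10 were lower in layer A than B. With scaling by total counts without mitochondrial transcripts, 5 in place of 9 were lower in layer A than C, and the median of all transcripts moved by 0.105 and 0.104 in log2 towards layer A in the 2 comparisons. DESeq2 called 2 members between layers B and C (1 higher and 1 lower in layer B), with its share over all transcripts not computed. The log2 fold change of Pcdh18 between layers A and C, which was not called, turned positive under that scaling (0.0058) and ranged from -0.42 to 0.14 with 1 sample omitted, positive without layer A replicate 1 (0.03), layer A replicate 3 (0.11) or layer C replicate 3 (0.14). With the replicate block, 16 members were called for A against B, 14 for A against C, 0 for B against C and 16 over all 3 layers. The block lost no pairwise call and gained Cdh6 against layer C, but the samples share only a number, and not every sample correlated best with its own number. With layer B replicate 3 and layer C replicate 2 both left out, 17 and 16 members were called. Without a filter, Cdh3, Celsr3 and Fat2 were also called against layer B and Cdh6, Fat2 and Pcdh7 against layer C. DESeq2 also called Cdh22 against layer B and Cdh6 and Pcdh20 against layer C, as did the test of 1 transcript a gene. Further, with 10 counts asked of all 9 samples Cdh1, Celsr1 and Pcdh8 were not tested. The causes were not tested.

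Of 847 fold changes of named members under an alternative, 772 kept their direction and their side of the threshold, 66 lost and 5 gained a call, and 4 turned in direction. The 772 include fold changes that were not called in the main fit. Alternatives in which a member was not tested are not among the 847, such as Cdh1 without any one layer A replicate. Cdh1, Cdh3 and Fat2 rest on few counts, and the floor of 3 counts was highest in layer A.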
